A study of Mus musculus with 8 samples.

Results

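The genes described here are 10 genes of glycolysis, the glucose transporter Slc2a1 and the enzymes Hk1, Hk2, Gpi1, Pfkl, Pfkp, Aldoa, Pgk1, Pkm and Ldha. They were chosen by name, and each matched 1 locus in each of the 2 tables, out of 24281 named loci in the female table and 23944 in the male table. RNA-Seq was performed on mouse E15.5 germ cells that were isolated by the Oct4-EGFP transgene, a green fluorescent reporter of the germline, from control and Snf5 CKO gonads. The 8 libraries fell into 4 groups of 2, control and Snf5 CKO in either sex. Snf5 is the older name of Smarcb1, which encodes a core component of SWI/SNF, a complex that remodels chromatin.

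The Snf5 CKO germ cells were Snf5fx/Δ with TNAP-Cre, so that 1 Snf5 allele was already deleted and the floxed one was recombined by a Cre knocked into Alpl, a gene that primordial germ cells use. The control samples combined embryos of 3 genotypes, Snf5fx/+ without and with TNAP-Cre and Snf5fx/Δ without it, and some control cells therefore also carried a deleted allele or Cre. Every genotype carried a floxed allele, and all samples carried the Oct4-EGFP transgene. Recombination was incomplete, so the CKO samples were mosaics, and most samples were pooled from several embryos, whereas the male CKO cells are listed as sorted from single embryos. The labels give the strain as C57BL/6, and the methods of the study describe a mixed background. Smarcb1 was at 23.4 and 22.3 FPKM in female controls and at 4.24 and 2.47 FPKM in female CKO libraries. In males it was at 141 and 167 FPKM in controls and at 8.73 and 10.1 FPKM in CKO libraries, and the groups did not overlap in either sex.

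Glycolysis converts glucose into pyruvate in the cytosol and yields ATP without oxygen. Glucose enters through transporters of the Slc2a family and is held in the cell by phosphorylation, the phosphofructokinase reaction commits it to the pathway, and lactate dehydrogenase can turn the pyruvate into lactate. Several steps can be carried out by different isozymes. Pluripotent stem cells are known for a high rate of glycolysis, whereas oocytes use little glucose themselves and take up pyruvate, and Sertoli cells turn glucose into lactate for the germ cells of the testis.

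In female germ cells, 6 of the 9 glycolysis genes that could be tested rose in the Snf5 CKO (Gpi1, Pfkl, Aldoa, Pgk1, Pkm and Ldha) and none fell, also at an unadjusted limma p under 0.05. In male germ cells, 3 of 10 rose (Pfkl, Pgk1 and Ldha) and 1 fell (Hk2). A gene was called where limma gave a Benjamini-Hochberg adjusted p under 0.05 and the log2 fold change of FPKM + 1, CKO minus control, was at least 1 in size, and "rose" and "fell" are used only of called genes. In the female comparison 17.2% of all tested loci were called higher and 21.8% lower, and in the male comparison 14.3% were called higher and 17.5% lower. Large changes were thus common among all loci. Of all called male loci 45.1% were higher, and 35.0% after rescaling to a common sum, which moved the male median by -0.17. In females median-of-ratios scaling moved the median by 0.15 and the share of calls that were higher from 44.0% to 52.2%. The median log2 fold change of the 9 tested female members was 1.67, beside -0.14 over all tested loci, and that of the 10 male members was 0.02, beside -0.07 over all. By the adjusted p alone, 6 female members were higher and 0 lower, beside 26.7% and 34.8% of all loci, and 4 male members were higher and 3 lower, beside 20.9% and 25.3%. With the replicate block 4 male members were lower by the adjusted p alone, Gpi1 being added. The share of all loci that passed with this block was not counted, so that count has no background beside it. The members were not tested as a set.

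The 250 bases upstream of the annotated start nearest to the locus were read for all members, and those of 4 are shown because Pfkl, Pgk1 and Ldha were the members that rose in both sexes and Hk2 the one that fell in males. They are RefSeq sequences of GRCm38.p6, the assembly also called mm10, written 5′ to 3′ on the strand of the gene. Capitals mark ACGTG or its reverse complement CACGT, 1 form of the core letters of the motif that hypoxia-inducible factors recognize. The form GCGTG was not searched. The windows lie at chr10:78009808-78010057 on the minus strand for Pfkl, chrX:106186850-106187099 on the plus strand for Pgk1, chr7:46845554-46845803 on the plus strand for Ldha and chr6:82774455-82774704 on the minus strand for Hk2.
Pfkl: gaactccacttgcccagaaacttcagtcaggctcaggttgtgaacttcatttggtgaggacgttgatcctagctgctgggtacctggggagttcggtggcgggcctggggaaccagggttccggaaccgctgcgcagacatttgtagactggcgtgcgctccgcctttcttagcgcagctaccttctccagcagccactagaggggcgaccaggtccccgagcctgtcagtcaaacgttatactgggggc
Pgk1: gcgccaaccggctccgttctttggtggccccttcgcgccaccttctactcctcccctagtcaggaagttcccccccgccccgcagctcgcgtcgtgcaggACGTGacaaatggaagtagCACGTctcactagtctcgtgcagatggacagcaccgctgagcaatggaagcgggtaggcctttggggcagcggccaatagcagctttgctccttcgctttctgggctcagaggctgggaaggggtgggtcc
Ldha: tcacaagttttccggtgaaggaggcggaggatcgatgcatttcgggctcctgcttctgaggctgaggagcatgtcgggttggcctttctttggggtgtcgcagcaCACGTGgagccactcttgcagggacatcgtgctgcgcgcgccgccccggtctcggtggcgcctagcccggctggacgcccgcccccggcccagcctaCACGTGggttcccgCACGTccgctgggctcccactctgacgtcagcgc
Hk2: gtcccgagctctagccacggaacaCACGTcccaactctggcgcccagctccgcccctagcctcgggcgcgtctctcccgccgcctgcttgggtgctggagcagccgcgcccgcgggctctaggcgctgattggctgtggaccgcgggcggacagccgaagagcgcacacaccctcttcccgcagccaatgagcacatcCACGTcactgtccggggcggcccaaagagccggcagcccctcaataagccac
The Ldha window held 5 matches of ACGTG over both strands, at 145, 144, 48, 47 and 34 bases before the start. Among these were 2 copies of the palindrome CACGTG, the E-box letters, each of which counts once on either strand. Pgk1 held 2 matches, at 150 and 131 bases before the start, and Hk2 held 2, at 226 and 52 bases. Pfkl held no match of ACGTG in this window. ACGTG was present in 4 of the 10 member windows, Slc2a1 being the other one, and in 16.6% of the 32851 promoter windows of the same length in the reference. The reference can hold several starts of a gene, so that this share is over windows and not over genes. With any annotated start of a member, ACGTG was present in 6 of 10, Aldoa and Pkm being added. CACGTG was found in 1 of 10 members and in 6.02% of all windows, and the GC box GGGCGG in 7 of 10 and in 32.7%. Genes with ACGTG therefore stood among those that rose and among those that did not, and these matches are letters only.

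**Figure D1:**
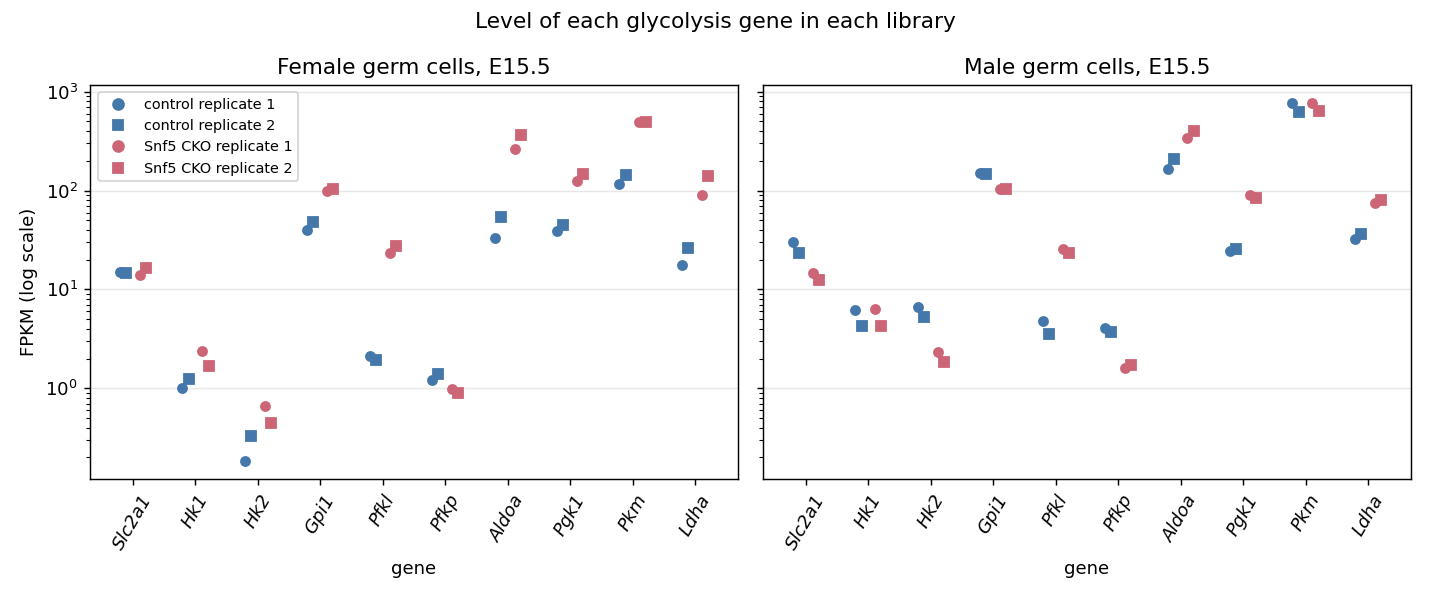
FPKM of the 10 glycolysis genes (log axis) in each of the 4 female libraries (left) and 4 male libraries (right), with circles for replicate 1, squares for replicate 2, blue for control and red for Snf5 CKO. In females the CKO points of Aldoa, Pfkl, Pgk1, Pkm and Ldha lie well above the controls, whereas in males those of Hk2, Slc2a1 and Pfkp lie below and those of Pkm overlap.

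FPKM is a level per transcript length, so that the members can be ranked within a library. In female controls, Pkm was the most abundant at 117 and 143 FPKM. Gpi1, Aldoa and Pgk1 followed between 32.8 and 54.4 FPKM, and their ranges overlapped. Ldha lay between 17.9 and 26.0 FPKM and Slc2a1 at 14.5 and 14.9 FPKM, whereas Pfkl, Pfkp, Hk1 and Hk2 were all at or under 2.104 FPKM. In male controls, Pkm was again the first at 772 and 628 FPKM, and Aldoa and Gpi1 were next, at 165 and 208 FPKM and at 151 and 148 FPKM. Ldha, Slc2a1 and Pgk1 lay between 23.2 and 36.1 FPKM, and the ranges of Slc2a1 and Pgk1 overlapped. Hk2, Hk1, Pfkl and Pfkp stood last, between 3.53 and 6.57 FPKM, and neighbors in that order overlapped. The sexes are in separate tables, each taken as normalized by itself, so that levels were compared between the sexes only side by side and with no test.

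The entry of glucose was examined first. Slc2a1 (GLUT1, chr4:119108745-119137329) carries glucose across the plasma membrane. In females it was at 14.9 and 14.5 FPKM in controls and at 14.02 and 16.3 FPKM in CKO libraries. The groups overlapped, and the log2 fold change was 0.04 ± 0.18 (SE, limma adjusted p = 0.863). In males Slc2a1 was at 30.1 and 23.2 FPKM in controls and at 14.6 and 12.4 FPKM in the CKO, both CKO libraries lying below both controls. The male log2 fold change was -0.92 ± 0.21 with a limma adjusted p of 0.0207, short of the 2-fold limit. Without male control replicate 2 it was -1.11, and without male CKO replicate 1 it was -1.04, and in both cases it passed the limit.

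Slc2a3 (GLUT3), a transporter with a high affinity for glucose, is not a member but shares the step. It was at 5.14 and 4.90 FPKM in female controls and at 164 and 141 FPKM in the female CKO, a log2 fold change of 4.67 ± 0.17 (limma adjusted p = 0.000106). Slc2a1 accounted for 74.4% and 74.7% of the summed FPKM of both transporters in female controls and for 7.88% and 10.4% in the CKO. Of these 2 transporters, Slc2a1 was thus the main one in female controls and Slc2a3 in the female CKO. The sum itself was 20.1 and 19.4 FPKM in female controls and 178 and 157 FPKM in the CKO. Slc2a2, which was not in the sum, was at 9.09 and 7.65 FPKM in female controls, above Slc2a3. It was at 6.47 and 8.795 FPKM in the female CKO. In males Slc2a3 was at 37.0 and 28.3 FPKM in controls and at 81.8 and 62.0 FPKM in the CKO, with a log2 fold change of 1.11 ± 0.23 (limma adjusted p = 0.0162). The male share of Slc2a1 was 44.9% and 45.1% in controls and 15.2% and 16.7% in the CKO. Slc2a3 was thus the less abundant of these 2 transporters in female controls and the more abundant one in the other 3 groups. The male call of Slc2a3 was lost without control replicate 2 (0.93), without CKO replicate 1 (0.92) and with a common sum (0.93, limma adjusted p = 0.103).

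Hexokinases phosphorylate glucose, and they were among the least abundant members. Hk1 (chr10:62268855-62379908), the widely expressed form, was at 1.01 and 1.23 FPKM in female controls and at 2.40 and 1.70 FPKM in the CKO. Both CKO values lay above the controls, but the log2 fold change of 0.52 ± 0.21 did not pass (limma adjusted p = 0.0686). In males Hk1 was at 6.22 and 4.23 FPKM in controls and at 6.37 and 4.29 FPKM in the CKO, with overlapping groups and a log2 fold change of 0.02 ± 0.28 (limma adjusted p = 0.953).

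Hk2 (chr6:82725027-82774454), the isozyme typical of muscle and of many growing cells, was at 0.184 and 0.330 FPKM in female controls and at 0.667 and 0.443 FPKM in the CKO. Its mean in females was under 1 FPKM, so it did not enter the test. In males Hk2 was at 6.57 and 5.28 FPKM in controls and at 2.31 and 1.83 FPKM in the CKO. It was the male member that fell, to 35.0% of the control mean, with a log2 fold change of -1.17 ± 0.21 (limma adjusted p = 0.0104). Hk2 made up 51.4% and 55.5% of the summed FPKM of Hk1 and Hk2 in male controls and 26.6% and 29.9% in the male CKO. In females its share was 15.4% and 21.1% in controls and 21.7% and 20.7% in the CKO, and the groups overlapped.

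Gpi1 (chr7:34201327-34230336 in the female table), which converts glucose 6-phosphate to fructose 6-phosphate, was at 40.1 and 48.4 FPKM in female controls and at 99.6 and 103.7 FPKM in the female CKO. It rose 2.30-fold in females, with a log2 fold change of 1.19 ± 0.18 (limma adjusted p = 0.00146). In males Gpi1 was at 151 and 148 FPKM in controls and at 104 and 103.9 FPKM in the CKO. The male groups did not overlap either, with the CKO below, but the log2 fold change of -0.52 ± 0.17 did not pass (limma adjusted p = 0.0580). In the fit blocked by replicate, the limma adjusted p of male Gpi1 was 0.000474, at the same log2 fold change, short of the 2-fold limit. Side by side, in separate tables, the 4 CKO libraries of both sexes lay between 99.6 and 104 FPKM.

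Phosphofructokinase, the main control point of the pathway, is built of liver (Pfkl), muscle (Pfkm) and platelet (Pfkp) type subunits. Pfkl (chr10:77986949-78009796) was at 2.104 and 1.92 FPKM in female controls and at 23.6 and 27.7 FPKM in the female CKO. This 12.7-fold difference, a log2 fold change of 3.14 ± 0.19 (limma adjusted p = 0.000107), was the largest among the female members. In males Pfkl was at 4.78 and 3.53 FPKM in controls and at 25.7 and 23.5 FPKM in the CKO, a 5.91-fold rise with a log2 fold change of 2.32 ± 0.21 (limma adjusted p = 0.00254), which was also the largest among the male members. Pfkp (chr13:6548142-6648771 in the female table) was at 1.21 and 1.40 FPKM in female controls and at 0.982 and 0.892 FPKM in the CKO, a log2 fold change of -0.25 ± 0.19 (limma adjusted p = 0.277). In males Pfkp was at 4.06 and 3.76 FPKM in controls and at 1.60 and 1.73 FPKM in the CKO. The male log2 fold change of Pfkp was -0.88 ± 0.18 with a limma adjusted p of 0.0144, short of the 2-fold limit, which it passed with a pseudocount of 0.1 (-1.18) and with a common sum (-1.09).

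Pfkm, the third subunit and not a member, was at 31.99 and 17.8 FPKM in female controls and at 10.1 and 9.22 FPKM in the female CKO. Its log2 fold change was -1.22 ± 0.28 (limma adjusted p = 0.00844), and this call was lost without female control replicate 1, where it was -0.82, and on linear FPKM, where the limma adjusted p was 0.0866. Pfkl accounted for 5.96% and 9.10% of the summed phosphofructokinase FPKM in female controls and for 68.0% and 73.3% in the CKO, whereas Pfkm went from 90.6% and 84.3% to 29.2% and 24.4%. In males the share of Pfkl was 17.5% and 16.1% in controls and 66.2% and 70.3% in the CKO. The most abundant subunit thus changed from Pfkm in controls to Pfkl in CKO libraries in both sexes. The sum over the 3 subunits overlapped between the groups in females, at 35.3 and 21.1 FPKM in controls and 34.7 and 37.8 FPKM in the CKO, and was 27.3 and 21.9 FPKM in male controls and 38.8 and 33.4 FPKM in the male CKO. These shares are given as a description and were not tested.

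**Figure D2:**
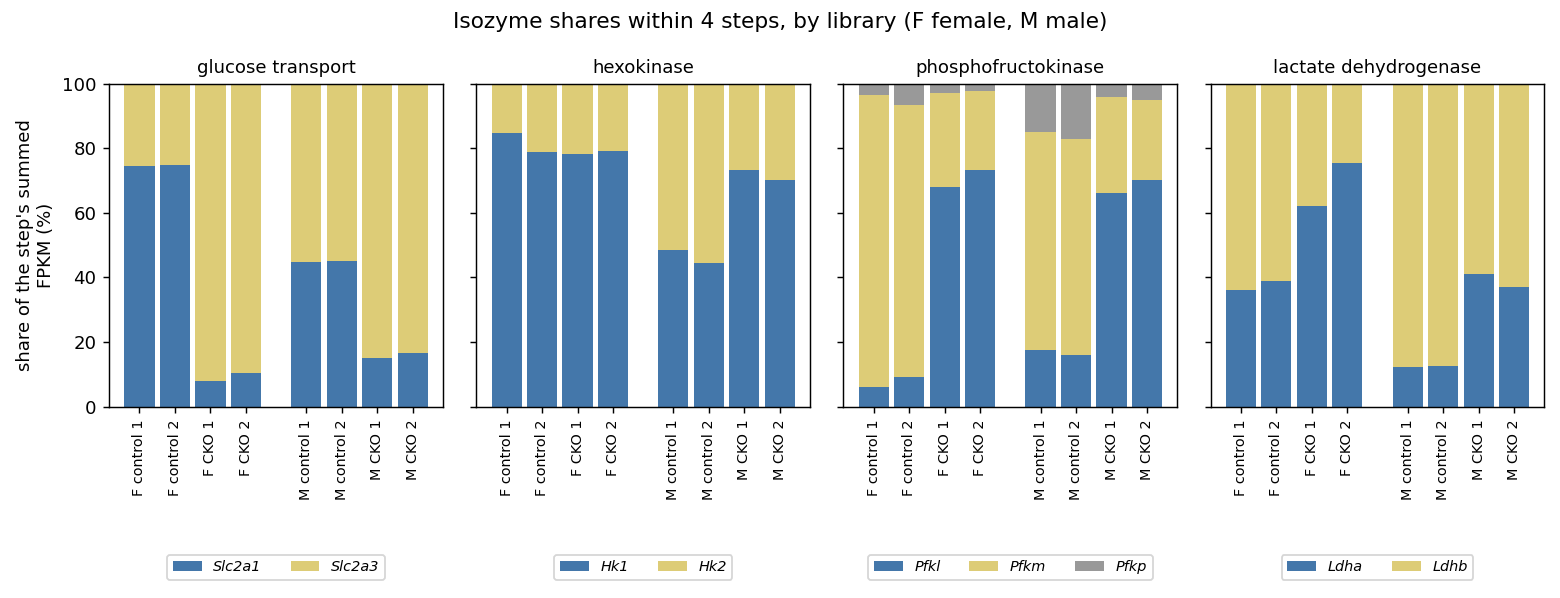
Share of each gene in the summed FPKM of the genes shown for its reaction step (bars add to 100%). The steps are glucose transport, hexokinase, phosphofructokinase and lactate dehydrogenase, in each of the 4 female (F) and 4 male (M) libraries. Other genes of a step, such as Slc2a2 and Ldhc, are not in the sums. The share of Pfkl lies between 5.96% and 17.5% in the controls and between 66.2% and 73.3% in the Snf5 CKO libraries.

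Pfkl lies 2.07 Mb from Smarcb1, the targeted gene, on chromosome 10, and the loci around Smarcb1 were therefore counted. Within 5 Mb of Smarcb1 on either side, 23.9% of 113 tested loci were called higher and 14.2% lower in females, and 18.5% of 124 were called higher and 13.7% lower in males. The rank of Pfkl among these loci by log2 fold change was 2 in females and 5 in males. The part of this position in the change of Pfkl was not tested.

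Aldolase opens the later steps of the pathway. Aldoa (chr7:126795234-126800447 in the female table), which splits fructose 1,6-bisphosphate, was at 32.8 and 54.4 FPKM in female controls and at 261 and 362 FPKM in the female CKO. It rose 7.15-fold in females, with a log2 fold change of 2.83 ± 0.29 (limma adjusted p = 0.000344). In males Aldoa was at 165 and 208 FPKM in controls and at 342 and 403 FPKM in the CKO. The male log2 fold change was 0.9966 ± 0.23 with a limma adjusted p of 0.0227, just under the limit of 1, and it passed with a pseudocount of 0.1 and with median-of-ratios scaling (1.08). Aldoa made up between 94.9% and 98.9% of the summed FPKM of Aldoa and Aldoc in all 8 libraries, so this step did not change its main isozyme.

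Pgk1 (chrX:106187100-106203699), which makes the first ATP of the pathway, was at 38.8 and 44.9 FPKM in female controls and at 125 and 146 FPKM in the female CKO. The female log2 fold change was 1.67 ± 0.18 (limma adjusted p = 0.000437). In males Pgk1 was at 24.2 and 25.5 FPKM in controls and at 89.7 and 85 FPKM in the CKO, a log2 fold change of 1.77 ± 0.16 (limma adjusted p = 0.00254). Pgk1 thus rose 3.23-fold in females and 3.51-fold in males. It is encoded on the X chromosome, where 19.2% of 458 tested loci were called higher and 30.3% lower in females, and 13.6% of 462 were called higher and 26.2% lower in males. The median log2 fold change of X chromosome loci was -0.31 in females and -0.14 in males.

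Pkm (chr9:59656368-59679375), which makes pyruvate, was at 117 and 143 FPKM in female controls and at 495 and 497 FPKM in the female CKO. It rose 3.82-fold in females, with a log2 fold change of 1.93 ± 0.21 (limma adjusted p = 0.000427). In males Pkm was at 772 and 628 FPKM in controls and at 768 and 640.1 FPKM in the CKO. The male groups overlapped almost fully, with a log2 fold change of 0.01 ± 0.29 (limma adjusted p = 0.981). The M1 and M2 isoforms of Pkm are spliced from 1 gene and are not separated in these tables.

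Ldha (chr7:46845804-46855627), the lactate dehydrogenase subunit that favors lactate, was at 17.9 and 26.0 FPKM in female controls and at 90.8 and 142 FPKM in the female CKO. It rose 5.30-fold in females, with a log2 fold change of 2.34 ± 0.28 (limma adjusted p = 0.00058). In males Ldha was at 32.3 and 36.1 FPKM in controls and at 74.8 and 81.0 FPKM in the CKO, a 2.28-fold rise with a log2 fold change of 1.16 ± 0.17 (limma adjusted p = 0.00605). The male call was lost after scaling the libraries to a common sum (log2 fold change 0.98, limma adjusted p = 0.0629). Another subunit, Ldhb, is typical of the heart and favors the use of lactate. It was at 31.5 and 40.9 FPKM in female controls and at 55.3 and 46.5 FPKM in the female CKO, a log2 fold change of 0.49 ± 0.20 that did not pass (limma adjusted p = 0.0703, and 0.0282 with the replicate block). In males Ldhb was at 231 and 249 FPKM in controls and at 107 and 137 FPKM in the CKO, a log2 fold change of -0.98 ± 0.21 with a limma adjusted p of 0.0187, short of the 2-fold limit. Male Ldhb passed the limit with a common sum (-1.17) and without CKO replicate 2 (-1.16). The share of Ldha in the summed FPKM of Ldha and Ldhb was 36.2% and 38.9% in female controls and 62.2% and 75.3% in the female CKO. In males it was 12.3% and 12.7% in controls and 41.2% and 37.1% in the CKO. Ldhb thus stayed the more abundant of these 2 subunits there. Ldhc, described below, was not in this sum.

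The 4 remaining steps between aldolase and pyruvate kinase, which the members leave out, were called in 1 direction in females and were divided in males. Tpi1, Gapdh, Pgam1 and Eno1 were all called higher in the female CKO, with log2 fold changes of 3.01, 2.32, 2.96 and 3.73. Eno1 (enolase) was at 30.5 and 23.1 FPKM in female controls and at 401 and 330 FPKM in the female CKO. In males Tpi1 (triose phosphate isomerase) rose, from 25.4 and 23.8 FPKM to 88.5 and 106 FPKM, with a log2 fold change of 1.93 ± 0.18 (limma adjusted p = 0.00264). The male log2 fold change of Gapdh was 0.83 (limma adjusted p = 0.0595, and 0.000102 with the replicate block), and that of Pgam1 (phosphoglycerate mutase) was -0.71 (limma adjusted p = 0.0452), neither of which was called. Male Eno1 fell, from 773 and 574 FPKM to 328 and 257 FPKM, with a log2 fold change of -1.20 ± 0.28 (limma adjusted p = 0.0232). This call was lost when any single male library was left out, the log2 fold change then lying between -1.41 and -0.98.

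**Figure D3:**
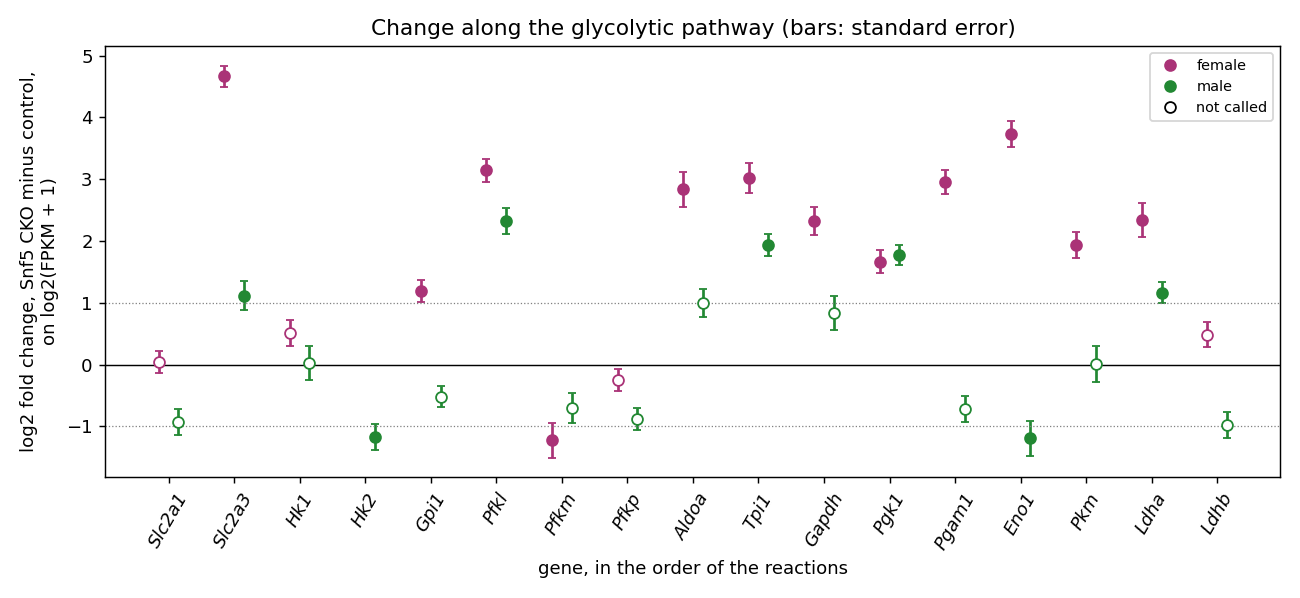
Log2 fold change of FPKM + 1, Snf5 CKO minus control (bars: standard error of the limma fit, 2 libraries per group), for glycolysis genes in the order of the reactions, in females and males. Filled points were called and open points were not, dotted lines mark the 2-fold limits, and female Hk2, with a mean under 1 FPKM, has no point.

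The ratio of CKO to control can also be taken within each replicate number. On the log2(FPKM + 1) scale, the ratios within replicate 1 and within replicate 2 were 2.98 and 3.30 for Pfkl in females and 2.21 and 2.43 in males. For Pgk1 they were 1.66 and 1.68 in females and 1.85 and 1.70 in males. The levels of some members differed more between replicates of a group, as in the female controls of Aldoa (32.8 and 54.4 FPKM) and the female CKO libraries of Ldha (90.8 and 142 FPKM). Their female ratios within replicates 1 and 2 were 2.96 and 2.71 for Aldoa and 2.28 and 2.40 for Ldha. Those of female Hk1 were 0.76 and 0.27. In females both CKO libraries lay above both controls for 8 of the 10 members and below them for 1, beside 36.2% and 45.3% of all tested loci. These 8 include Hk2, which was not tested in females, whereas the shares are over tested loci only. In males both CKO libraries lay above for 4 members and below for 4, beside 34.5% and 39.9%. The male Gpi1, Pkm and Pgam1 values and their female counterparts were not compared by a test, since the sexes are in separate tables.

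A further 71 genes in 7 lists covered glucose metabolism, its regulators and targets of hypoxia-inducible factor outside glycolysis. Of these, 70 had a male locus. In females 14 were called higher and 8 lower of 51 tested, beside 17.2% and 21.8% of all tested loci. The female median log2 fold change was 0.34. In males 9 were called higher and 7 lower of 52 tested, with a median of -0.06, beside 14.3% and 17.5% of all loci, and these counts lay near that background. The isozyme and transporter list held 21 genes, of which 11 were tested in females and 12 in males. In females 3 rose and 1 fell (Slc2a3, Aldoc, Slc16a3 and Pfkm). In males 5 rose and 1 fell (Slc16a3, Eno3 and Adpgk among those that rose, and Ldhc). Slc16a3 (MCT4), which exports lactate, was at 0.696 and 0.582 FPKM in female controls and at 1.78 and 3.01 FPKM in the female CKO, and at 2.06 and 1.04 FPKM in male controls and at 10.3 and 8.03 FPKM in the male CKO. It rose by a log2 fold change of 1.03 ± 0.23 in females (limma adjusted p = 0.00842) and of 2.01 ± 0.27 in males (limma adjusted p = 0.0053). Ldhc, the testis type lactate dehydrogenase, was at 16.6 and 23.4 FPKM in male controls and at 2.68 and 4.94 FPKM in the male CKO, a log2 fold change of -2.15 ± 0.32 (limma adjusted p = 0.0064).

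Pathways that branch from glycolysis were counted in the same way. Their counts stand beside the 17.2% of tested loci called higher and 21.8% called lower in females, and 14.3% and 17.5% in males. Of 8 pentose phosphate pathway genes, Tkt (transketolase) rose by a log2 fold change of 1.40 and G6pdx and Pgd, the dehydrogenases that make NADPH, showed log2 fold changes of -1.33 and -1.54 and fell. G6pdx was at 37.9 and 41.5 FPKM in female controls and at 15.3 and 15.1 FPKM in the female CKO, and Pgd was at 138 and 137 FPKM in controls and at 46.6 and 46.1 FPKM in the CKO. In males neither was called, and Rpe rose by 1.61 (log2 fold change). Of 7 gluconeogenesis genes, 4 were tested in females and 3 in males. Pcx (pyruvate carboxylase) was at 261 and 246 FPKM in female controls and at 40.4 and 35.8 FPKM in the female CKO. Its log2 fold change was -2.70 ± 0.17 (limma adjusted p = 0.000109). The quantification of Pcx has the status FAIL in female control replicate 1, and Pcx is not among the called genes when only loci with status OK are kept. G6pc3 fell in both sexes, with log2 fold changes of -1.03 in females and -1.14 in males, and Fbp1 rose in females from 0.0994 and 0.153 FPKM to 3.63 and 1.61 FPKM.

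The lists that follow stand beside the same shares of all tested loci. Of the 12 genes for the entry of pyruvate into mitochondria, 11 were tested in each sex, and 2 rose and 3 fell in females. Pdha1, the catalytic subunit of pyruvate dehydrogenase, and Pdk2, a kinase that inhibits it, rose by log2 fold changes of 1.74 and 1.15. The pyruvate carrier subunit Mpc1 and the phosphatase Pdp1 fell, with log2 fold changes of -1.44 and -1.32. Pdk3, another such kinase, fell from 218.5 and 202.5 FPKM to 114.8 and 88.7 FPKM (log2 fold change -1.05, limma adjusted p = 0.00436). Pdk2 was far less abundant, at 1.22 and 1.90 FPKM in female controls and at 4.95 and 4.36 FPKM in the CKO. In males Pdp1 was the 1 called gene of this list, at -1.44. Of 7 regulators of glycolysis, 4 were tested in females, where Tigar was called (1.12), and limma called none of the 5 tested in males. At an unadjusted limma p under 0.05 there were 2 in males, Pfkfb1 and Hif1a, named after their values were seen. Male Pfkfb1 had a log2 fold change of 0.86 with a limma adjusted p of 0.0157, short of the 2-fold limit. Male Hif1a had 0.88 with a limma adjusted p of 0.0659. Of 12 targets of hypoxia-inducible factor outside glycolysis, 9 were tested in females, where Ddit4 (3.77) and Egln3 (1.58) rose, and 10 in males. In males Egln1 (1.71) and Ddit4 (1.12) rose, and 3 fell, with Kdm3a (-2.21) and P4ha2 (-1.46) changing the most.

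The sorted cells had the markers of germ cells, and markers of their stage differed between the groups. The summed level of 8 germ cell markers was 4539 and 4357 FPKM in female controls and 3109 and 3371 FPKM in the female CKO, and 5188 and 5600 FPKM in male controls and 4480 and 5056 FPKM in the male CKO. Within this list, the female CKO had higher Pou5f1 (295 and 333 FPKM against 8.63 and 16.8 FPKM), Dppa3 and Dnd1, and lower Sycp3, Mael and Tdrd1. Pou5f1 (Oct4), the gene behind the sorting reporter, and Dppa3 mark primordial germ cells, and Sycp3 is part of the synaptonemal complex of meiosis. In male CKO libraries 4 of the 8 were called lower (Dnd1, Mael, Sycp3 and Tdrd1), beside 17.5% of all tested loci, and 0 higher. Both male CKO libraries lay above both controls for 3 of the 8 (Dazl, Pou5f1 and Dppa3) and below them for 5. These shares were 34.5% and 39.9% of all tested male loci.

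Markers of supporting cells moved with the groups. In males the sum of 8 Sertoli cell markers was 111 and 76.3 FPKM in controls and 492 and 659 FPKM in the CKO, and 8 of 8 were called higher. Leydig cell markers summed to 89.4 and 60.3 FPKM in male controls and to 29.6 and 27.2 FPKM in the male CKO, with 1 of 6 called higher and 3 lower. Stromal markers summed to 22.1 and 11.3 FPKM in male controls and to 4.63 and 3.06 FPKM in the CKO, with 3 of the 4 tested called lower. Beside these counts, 14.3% of all tested male loci were called higher and 17.5% lower. In females the sum of 8 pre-granulosa cell markers was 10.3 and 12.6 FPKM in controls and 26.1 and 20.9 FPKM in the CKO. Of these, 7 of 8 lay above both controls, beside 36.2% of all tested loci, and these 7 include Lgr5, which was not tested. Of the 7 tested in this list, Fst and Irx3 were called higher and Bmp2 was called lower, beside 17.2% and 21.8% of all tested loci. The female Sertoli list summed to 5.21 and 7.22 FPKM in controls and to 17.1 and 15.9 FPKM in the CKO, and Dhh and Cst9 were listed at 0 in both female controls. It shares Gata4 and Wt1 with the pre-granulosa list, so these sums are not separate signals. Of its 3 tested genes, Aard was called higher, beside 17.2% of all tested loci. Sox9 overlapped between the female groups, and Amh was at 0.123 and 0.112 FPKM in controls and at 0.074 and 0.0125 FPKM in the CKO. The blood and endothelial list summed to 24.0, 99.5, 27.4 and 84.3 FPKM in the female control and CKO libraries and was higher in both replicate 2 libraries. Within it Pecam1, which is also known from early germ cells, was called higher in the female CKO, at 4.10 and 3.65 FPKM in controls and 24.3 and 19.7 FPKM in the CKO. The endothelial markers Cdh5 and Kdr went the other way, both female CKO libraries lying below both controls. They were at or under 0.390 FPKM in every female library and were not tested. The part of these markers in the changes of the glycolysis genes was not tested. Fewer cells of a type and less RNA per cell cannot be told apart in such bulk samples.

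**Figure D4:**
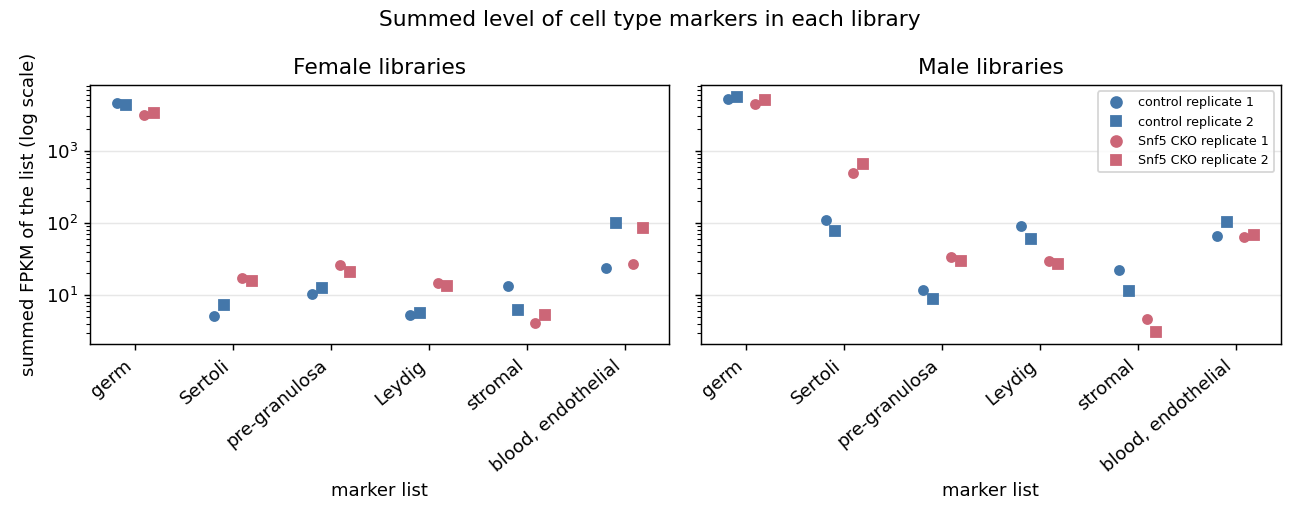
Summed FPKM (log axis) of each list of cell type markers in the 4 female libraries (left) and the 4 male libraries (right), with circles for replicate 1, squares for replicate 2, blue for control and red for Snf5 CKO. Germ cell markers are the highest in all libraries, and the Sertoli list is higher in both male CKO libraries (492 and 659 FPKM) than in the male controls (111 and 76.3 FPKM).

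The summed FPKM of a library ranged from 6.74e+05 to 1.55e+06, and loci without a name held between 5.46% and 42.1% of it. The tables hold no counts and the total depth is unknown, so no counting interval is given for any level. Aldoa, Pgk1, Pkm, Ldha, Gapdh, Tpi1, Eno1 and Pgam1 have processed copies elsewhere in the genome, and how reads matching several places were treated is not given in the sources used here, which leaves their levels uncertain to that extent. With 2 libraries per group, the p-values measure only the spread between these samples, which may be partly technical.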

How the data were processed

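RNA-Seq libraries were made by the authors from total RNA of sorted germ cells with a SMART-Seq kit. According to the methods, Tophat aligned the paired-end reads to mm10 and Cufflinks estimated the levels, and the deposited tables are separate for females and males. The submitters' processing notes name TopHat2 2.2.1 and Cuffdiff 2.1.1, whereas the methods give 2.1.1 for Tophat and 2.2.1 for Cufflinks. The deposited tables hold FPKM, which are fragment numbers scaled by transcript length and by the mapped fragments of the library, per locus and library, and 16 columns of the authors' confidence bounds that were not used. The annotation version and the scaling between libraries are not given in the sources used here. FPKM per length lets genes be ranked within a library, but low values carry more error than high ones, and the pseudocount understates their changes.

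The members and all lists were chosen with earlier results of these data known. The 29018 female and 30216 male loci include 4737 and 6272 without a name, which were left out, and for a gene with several loci the most abundant one by mean FPKM was taken. The deposited FPKM were converted to log2(FPKM + 1), and limma 3.58.1 (R 4.3.3) was run on each sex separately (lmFit and eBayes with trend, two-sided). Tested were the named loci whose mean over 4 libraries reached 1 FPKM, 11642 in females and 12368 in males, and p-values were adjusted over all of them by the Benjamini-Hochberg method. The code was tested on simulated data. The whole-number steps in low values did not settle the relative depth, since the best set of depths placed 34.5% of the female and 36.0% of the male ratios on such steps and the next one nearly as many.

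All 10 members were named in each sex. Of the other lists the text names the 4 other steps, the isozymes used in the shares and up to 4 called genes of a list in a sex, by size of change. Pdk3 and Slc2a2 were named in addition, after their values were seen. The column names of the male table call the replicate numbers experiments, and the raw files of replicates 1 and 2 are named in different styles in both sexes, so that the number was taken to mark a shared batch. Across loci, the difference between replicate 2 and replicate 1 in controls and in CKO libraries had a correlation of 0.504 in females and 0.595 in males. The replicate block was one alternative, and the others changed the pseudocount to 0.1, dropped the filter or raised it to a mean of 5 FPKM, rescaled the libraries to a common sum or by median of ratios, left out the trend, used linear FPKM, summed the loci of a gene, kept only loci with status OK, or omitted a library. Promoter windows and their motifs came from RefSeq sequences of GRCm38.p6. Python 3.11.15 with matplotlib 3.10.9 drew the figures.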

Additional observations from a re-analysis of the deposited data

Results flagged for a closer look

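The 10 members, the 4 other steps and the further isozymes used in the shares (Slc2a3, Pfkm, Aldoc and Ldhb) were screened. For 6 of these genes both Snf5 CKO libraries lay on one side of both controls in females and on the other side in males. Such separation was common in either sex alone. Both CKO libraries lay above both controls for 36.2% of all tested female loci and below them for 45.3%. In males these shares were 34.5% and 39.9%. Opposite sides in the sexes were not counted over all loci, so whether 6 genes exceed the background is not known. The difference between the sexes was not tested, since the sexes are in separate tables. Among the members, Hk2 had a log2 difference of FPKM + 1 of 0.31 in females, at a mean under 1 FPKM, and of -1.17 in males. Gpi1 had 1.19 in females and -0.52 in males. Among the other genes of the pathway, the values were 2.96 and -0.71 for Pgam1 and 3.73 and -1.20 for Eno1. They were 1.30 and -0.44 for Aldoc, and 0.49 and -0.98 for Ldhb. The remaining genes of the further lists were not screened in this way. Of the 12 differences, those called by limma were Gpi1, Pgam1, Eno1 and Aldoc in females and Hk2 and Eno1 in males.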

How the results depend on the processing

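The 6 female members called higher and the 0 called lower were the same counts under each alternative run. The male count of 3 called higher lay between 2 (common sum, without Ldha) and 4 (pseudocount of 0.1 or median of ratios, with Aldoa). The male count of 1 called lower was 2 with a pseudocount of 0.1 and after rescaling to a common sum (Hk2 and Pfkp, the latter at -1.18 and -1.09), 0 with a mean of at least 5 FPKM, where Hk2 was not tested, and 1 to 2 with each library left out, Slc2a1 being added without control replicate 2 or CKO replicate 1. In females the other pathway genes called higher were 9 with a mean of at least 5 FPKM, which tests fewer genes, and those called lower were 5 to 12 with each library left out, 5 without control replicate 1. Values near 0 changed sign. Female Slc2a1 ranged from -0.065 to 0.14 with each library left out. Male Hk1 was -0.13 with a common sum and ranged from -0.22 to 0.26 with each library left out, at -0.21 without control replicate 2 and -0.22 without CKO replicate 1. Male Pkm was -0.18 with a common sum and ranged from -0.14 to 0.16, at -0.14 without control replicate 2 and -0.12 without CKO replicate 1. With the replicate block, 6 female members were called higher, and 3 male members higher and 1 lower, and the block changed no call of the members or of the other steps and isozymes named. The cause of the shifts under rescaling was not tested. The unknown depth and the 2 libraries per group limit what can be said of the lowest members, Hk1, Hk2 and Pfkp.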
